A study of Homo sapiens with 6 samples.

Results

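The integrin subunits of epithelial cells were examined in HCT116 cells, a human colorectal carcinoma line, with and without ZKSCAN3, a zinc finger transcription factor with KRAB and SCAN domains. The 10 genes were chosen by name, with earlier results of these data known. They comprise the α subunits ITGA2, ITGA3, ITGA5, ITGA6 and ITGAV and the β subunits ITGB1, ITGB4, ITGB5, ITGB6 and ITGB8. Each matched 1 row of a table of 46427 genes. Total RNA of parental cells with wild type ZKSCAN3 (*ZK3*-WT, 3 libraries) and of ZKSCAN3 knockout cells (*ZK3*-KO, 3 libraries) was sequenced as poly(A)-selected, paired-end libraries. Both were grown in DMEM with FBS. In *ZK3*-KO cells, CRISPR/Cas9 had removed the start codon in the first ZKSCAN3 exon on both alleles, and the line was grown out from single cells under puromycin selection. The knockout and the history of a selected clone therefore cannot be told apart in these samples, and whether a single clone supplied the 3 *ZK3*-KO libraries is not given in the sources used here. The libraries are described as biological triplicates.

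An integrin is a heterodimer of 1 α and 1 β chain that crosses the plasma membrane and binds extracellular matrix outside the cell and adaptor proteins inside it. ITGB4 pairs with ITGA6 alone, and the α6β4 receptor holds epithelial cells to laminin through hemidesmosomes, which anchor keratin filaments. ITGB1 pairs with many α chains, while ITGB5, ITGB6 and ITGB8 pair with ITGAV and bind RGD-containing ligands, among them latent TGF-β. ITGB4 is also among the genes that earlier work described as induced by ZKSCAN3, and the comparison asked whether these transcripts differed where ZKSCAN3 was lost.

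Apart from the barely detected ITGB6, the 3 members whose *ZK3*-KO values in CPM all lay under the *ZK3*-WT values were ITGB8, ITGA2 and ITGA6. Of all genes tested, 13.8% were apart in this direction. None of the 3 passed an FDR of 0.05 in all 6 libraries (edgeR FDR = 0.0698, 0.113 and 0.174). The sequences upstream of their starts are printed here beside that of ITGB1, the most abundant member, whose groups overlapped. The 250 bases before the RefSeq transcription start are given in the direction of transcription, from the GRCh38.p14 assembly. These are chr7:20330650-20330899 for ITGB8, chr5:52989102-52989351 for ITGA2, chr2:172427336-172427585 for the second of 2 listed ITGA6 starts, all on the plus strand, and chr10:32958231-32958480 for the first of 2 listed ITGB1 starts, on the minus strand. Capitals mark matches, on either strand, to the ZKSCAN3 binding motif in the literature, which is a G or T, then an A or G, then an A, G or T, then GGG, and touching or overlapping matches run together.
ITGB8: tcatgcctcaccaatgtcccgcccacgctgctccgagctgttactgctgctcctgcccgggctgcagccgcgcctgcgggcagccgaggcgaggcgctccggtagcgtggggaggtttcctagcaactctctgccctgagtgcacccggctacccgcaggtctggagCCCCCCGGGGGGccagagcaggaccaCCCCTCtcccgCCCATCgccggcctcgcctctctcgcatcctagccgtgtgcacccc
ITGA2: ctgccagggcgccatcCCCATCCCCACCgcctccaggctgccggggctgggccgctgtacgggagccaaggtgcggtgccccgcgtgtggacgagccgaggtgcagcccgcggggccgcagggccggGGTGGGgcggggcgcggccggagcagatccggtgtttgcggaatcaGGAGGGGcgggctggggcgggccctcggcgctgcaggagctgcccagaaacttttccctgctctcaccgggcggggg
ITGA6: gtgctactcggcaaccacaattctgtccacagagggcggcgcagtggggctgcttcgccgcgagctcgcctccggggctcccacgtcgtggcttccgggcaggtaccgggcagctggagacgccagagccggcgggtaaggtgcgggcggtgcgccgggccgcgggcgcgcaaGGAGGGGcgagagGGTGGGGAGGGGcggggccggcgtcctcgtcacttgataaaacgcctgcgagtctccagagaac
ITGB1: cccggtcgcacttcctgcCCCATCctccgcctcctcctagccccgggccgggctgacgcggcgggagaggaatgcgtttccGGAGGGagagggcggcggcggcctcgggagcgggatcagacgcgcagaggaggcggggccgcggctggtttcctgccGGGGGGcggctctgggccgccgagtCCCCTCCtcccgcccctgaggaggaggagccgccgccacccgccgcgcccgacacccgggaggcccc

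The motif is short and loose. It occurred in 86.5% of the 35116 RefSeq windows of this length, with a median of 3 matches. The ITGB8 window held 4 matches, the printed windows of ITGA2, ITGA6 and ITGB1 held 5 each, and the window of ITGA5 held 21, more than 99.8% of all windows. The 4 printed windows had a GC content between 71.2% and 78.4%, against a median of 58% over all windows. The starts listed for ITGA6 and ITGB1 but not printed differed, with 2 matches and 50.8% GC for ITGA6 and 6 matches and 41.6% GC for ITGB1, and which start these cells use was not measured. The windows of ITGAV held 3 and 4 matches, those of ITGB5 held 1, 3 and 6, and that of ITGB6 held 1. ITGA5, ITGB1, ITGAV, ITGB5 and ITGB6 passed the test in none of the fits described below. Whether matches go with levels was not tested. A match is a run of letters, and binding was not measured here. Of the 10 members, 8 were matched in the RefSeq table, and ITGA3 and ITGB4 were not.

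Between 60827060 and 69739215 reads were counted per library. ZKSCAN3 itself was measured at 28.1, 23.4 and 19.8 CPM across *ZK3*-WT libraries against 25.4, 24.9 and 13.6 CPM across *ZK3*-KO libraries, where CPM is the read count scaled to a common library size after TMM normalization, and triplets of values follow the order of replicates 1, 2 and 3 throughout. Reads from outside the deleted stretch are counted, so this count does not check the labels. *ZK3*-KO replicate 3 stood apart: its log2 CPM correlated across genes with the other *ZK3*-KO libraries at 0.963 and 0.950, against 0.983 to 0.989 for the other pairs within a genotype. Results are therefore given with it and without it. Of 12 epithelial markers, 9 passed the filter on low counts and none passed the test (summed level 4094 to 5305 TPM in *ZK3*-WT and 3682 to 6233 TPM in *ZK3*-KO), although VIL1, CDX1 and CEACAM5 were at or near 0. The sums of 8 leukocyte markers (6.69 to 10.8 against 2.61 to 6.17 TPM, with PTPRC and CD3E at 0) and of 6 endothelial markers (0.480 to 0.638 against 0.257 to 0.799 TPM) were low. CORO1A made up most of the leukocyte sum (mean 7.45 TPM in *ZK3*-WT and 3.86 TPM in *ZK3*-KO, edgeR FDR = 0.284). The 8 fibroblast markers summed to 5.71 to 7.26 TPM in *ZK3*-WT and 11.7 to 13.9 TPM in *ZK3*-KO libraries, with DCN, LUM and POSTN at or near 0. ACTA2, smooth muscle actin, made up most of this sum (mean 6.16 TPM in *ZK3*-WT and 12.0 TPM in *ZK3*-KO). It was higher in *ZK3*-KO (edgeR FDR = 0.0387, past the threshold in 6 of 13 alternatives, with FDRs up to 0.184). The part of these markers in the results below was not tested.

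Before genotypes are compared, the transcript levels of the members are given per transcript length, and receptor protein was not measured in these libraries. In *ZK3*-WT cells ITGB1 had the highest level (393 ± 77.5 TPM, SD, n = 3), followed by ITGA3, the laminin-binding α3 chain (316 ± 73.9 TPM), and their ranges overlapped. ITGB4 followed at 146 ± 8.94 TPM, below every ITGA3 value and above every ITGA6 value (68.4 ± 4.35 TPM). ITGA6, ITGA5 (59.1 ± 4.14 TPM), ITGB5 (47.5 ± 10.6 TPM), ITGA2 (41.6 ± 16.5 TPM) and ITGAV (28.0 ± 5.54 TPM) each overlapped the next in this order. ITGB8 (4.54 ± 2.43 TPM) and ITGB6 (0.140 ± 0.0274 TPM) stood below all others, and 19, 18 and 27 ITGB6 reads were counted in the 3 libraries. The order in *ZK3*-KO cells differed in 2 neighbouring pairs, with ITGA5 (51.6 ± 19.0 TPM) before ITGA6 (46.2 ± 5.35 TPM) and ITGAV (24.1 ± 11.7 TPM) before ITGA2 (17.7 ± 3.76 TPM), and both pairs overlapped. The 16 other integrin subunits together reached 20.9 to 24.1 TPM in *ZK3*-WT and 17.1 to 21.9 TPM in *ZK3*-KO libraries, against 911 to 1228 and 665 to 1372 TPM for the 10 members.

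No member passed the test in all 6 libraries. All 10 passed the filter on low counts, 0 rose and 0 fell at an FDR of 0.05 by edgeR's quasi-likelihood test, where 0.817% of the 18366 genes tested rose and 1.23% fell. An unadjusted p under 0.05 was reached by 3 of 10 members, against 18.4% of all genes tested, and 8 of 10 log2 fold changes were below 0, with a median of -0.26 against 0.02 for all genes tested. Without *ZK3*-KO replicate 3, 5 members were lower past an FDR of 0.05 (ITGA2, ITGA3, ITGA6, ITGB4 and ITGB8) and 0 were higher, while 7.73% of all genes fell and 7.41% rose in that fit, and the members' median was -0.58 against -0.02 for all genes. With the replicate number as a block, 1 member (ITGB8) was lower and 0 were higher, against backgrounds of 1.54% lower and 0.969% higher. By DESeq2, ITGA2 and ITGB8 were lower and 0 members were higher, where 4.33% of all genes were lower and 3.87% higher. In CPM, the *ZK3*-KO values of 4 members (ITGA2, ITGA6, ITGB6 and ITGB8) all lay below the *ZK3*-WT values and those of 0 members lay above, where 13.8% of all genes were apart in the lower and 12.7% in the higher direction. ITGB6 had passed the filter only through its *ZK3*-WT reads.

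**Figure D1:**
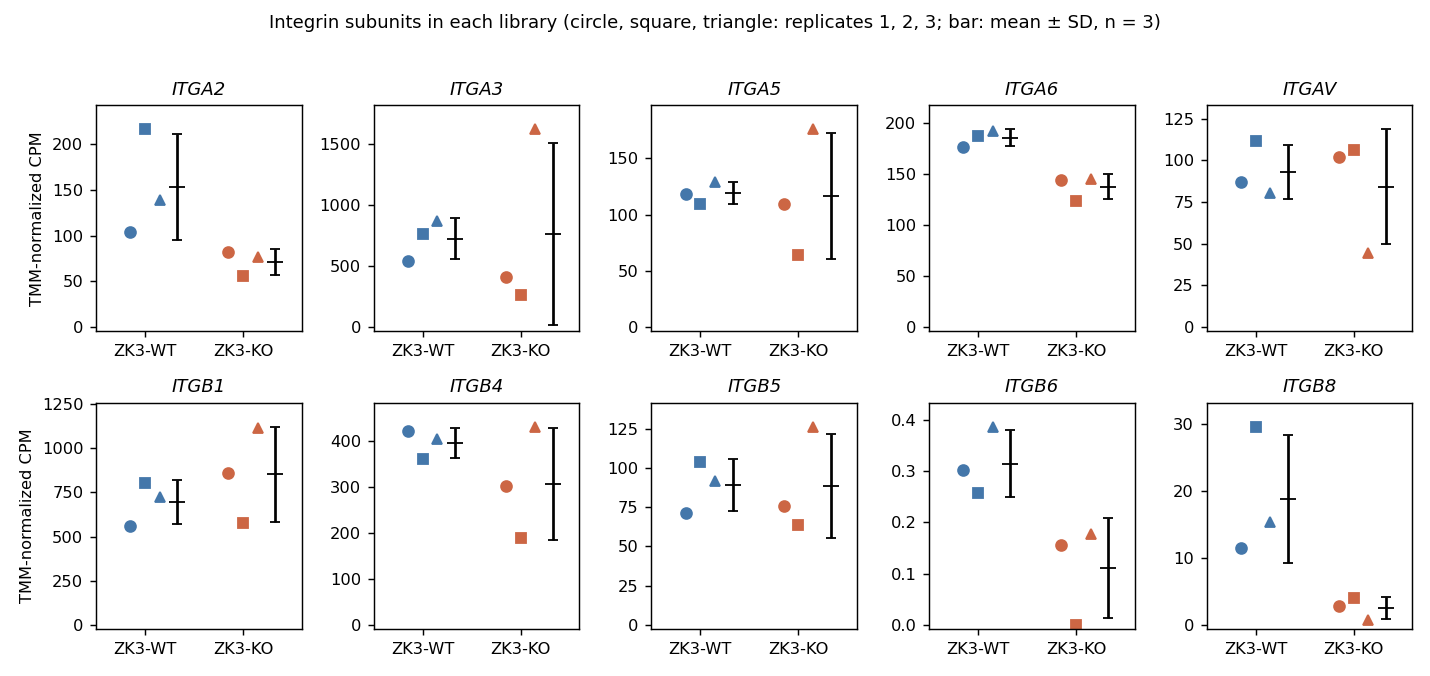
TMM-normalized CPM (linear axis from 0) of the 10 integrin subunits in the 3 *ZK3*-WT and 3 *ZK3*-KO libraries, 1 symbol per library, with mean ± SD beside each group. *ZK3*-KO values of ITGA2, ITGA6, ITGB6 and ITGB8 sit below every *ZK3*-WT value, whereas *ZK3*-KO replicate 3 (triangle) is the highest library for ITGA3, ITGA5, ITGB1, ITGB4 and ITGB5 and the lowest for ITGAV and ITGB8.

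ITGB4, the β4 chain with the long cytoplasmic tail that binds plectin, was measured at 422, 360 and 405 CPM across *ZK3*-WT libraries against 302, 189 and 431 CPM across *ZK3*-KO libraries. *ZK3*-KO replicates 1 and 2 were below every *ZK3*-WT library, and *ZK3*-KO replicate 3 was above all of them, so the groups overlapped. The log2 fold change was -0.37 ± 0.29 (SE, 95% CI -1.03 to 0.30), with an edgeR FDR of 0.544. Without *ZK3*-KO replicate 3 it was -0.69 ± 0.19 with an edgeR FDR of 0.0447, and without *ZK3*-KO replicate 2 it was -0.11 with an FDR of 0.829. The sign was the same under all 13 alternatives. On the TPM scale, ITGB4 values were 154, 136 and 148 in *ZK3*-WT and 111, 69.4 and 127 in *ZK3*-KO libraries, and there the groups did not overlap. Whether ITGB4 overlapped thus depended on the scaling, and the share of all genes apart in TPM was not computed. Over all genes tested, the median log2 fold change was -0.08 on log2(TPM + 1) against 0.02 in the edgeR fit. In bulk RNA, fewer cells with a transcript and less of it per cell cannot be told apart.

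ITGA6, the only known partner of ITGB4, had the smallest SD relative to its mean CPM in both genotypes. It was measured at 176, 188 and 193 CPM across *ZK3*-WT libraries against 144, 124 and 145 CPM across *ZK3*-KO libraries. All *ZK3*-KO libraries were below all *ZK3*-WT libraries, replicate 3 included. The log2 fold change was -0.43 ± 0.14 (95% CI -0.76 to -0.10) with an edgeR FDR of 0.174, and -0.46 ± 0.13 with an FDR of 0.0457 without *ZK3*-KO replicate 3. The ratio of ITGB4 to ITGA6 in TPM was 2.43, 1.95 and 2.07 in *ZK3*-WT and 2.13, 1.56 and 3.04 in *ZK3*-KO libraries. The mean log2 ratio was 1.10 ± 0.16 in *ZK3*-WT and 1.11 ± 0.48 in *ZK3*-KO cells (SD, n = 3), and an exact two-sided permutation test gave p = 1 where 0.1 is the smallest p that 3 against 3 libraries allow. The ratio was lowest in *ZK3*-KO replicate 2 and highest in *ZK3*-KO replicate 3, so the pair did not keep a fixed ratio among *ZK3*-KO libraries.

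The other laminin- and collagen-binding α chains differed in how far replicate 3 moved them. ITGA2, the collagen-binding α2 chain, was measured at 104, 217 and 139 CPM across *ZK3*-WT libraries against 82.4, 55.5 and 76.5 CPM across *ZK3*-KO libraries. Every *ZK3*-KO library was below every *ZK3*-WT library. Its log2 fold change was -1.10 ± 0.29 (95% CI -1.78 to -0.42), with an edgeR FDR of 0.113 in all libraries, 0.0351 without *ZK3*-KO replicate 3 (log2 fold change -1.15) and 0.0112 by DESeq2. ITGA3 values were 543, 767 and 866 CPM across *ZK3*-WT libraries against 408, 264 and 1622 CPM across *ZK3*-KO libraries. *ZK3*-KO replicates 1 and 2 lay below all *ZK3*-WT libraries and replicate 3 lay above all of them. Its log2 fold change was 0.08 ± 0.62 with an edgeR FDR of 0.964 with that library and -1.11 ± 0.24 with an FDR of 0.0188 without it, so the sign turned with 1 library.

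The α chains of RGD receptors showed no call in any fit. ITGA5, which forms the fibronectin receptor with ITGB1, was measured at 118, 110 and 129 CPM across *ZK3*-WT libraries against 109, 64.3 and 176 CPM across *ZK3*-KO libraries, with a log2 fold change of -0.03 ± 0.33. Without *ZK3*-KO replicate 3 the difference was -0.45 ± 0.21 (edgeR FDR = 0.174), and without *ZK3*-KO replicate 2 it was 0.26. ITGAV values were 86.8, 112 and 80.6 CPM across *ZK3*-WT libraries against 102, 106 and 44.4 CPM across *ZK3*-KO libraries, where replicate 3 was the lowest of all libraries, opposite to ITGA3 and ITGA5. Its log2 fold change was -0.14 ± 0.32 (edgeR FDR = 0.851) with replicate 3 and 0.17 ± 0.16 (FDR = 0.521) without it.

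Among the β chains, ITGB8 had the widest difference. ITGB8, which presents latent TGF-β for activation when paired with ITGAV, was counted with 724, 2072 and 1075 reads across *ZK3*-WT libraries against 184, 275 and 43 reads across *ZK3*-KO libraries. In CPM these were 11.5, 29.6 and 15.4 against 2.86, 3.97 and 0.696. The highest *ZK3*-KO value was below the lowest *ZK3*-WT value, and the values varied within both genotypes. The log2 fold change was -2.90 ± 0.63 (95% CI -4.38 to -1.43), and the edgeR FDR of 0.0698 missed the threshold. The FDR was 0.0271 with the replicate block, 0.00708 without *ZK3*-KO replicate 3 (log2 fold change -2.46), 3.24e-05 by DESeq2 and 0.0469 by limma on log2(TPM + 1), where the fold change was -1.77. ITGB8 passed in 4 of 13 alternatives, with the highest FDR at 0.283, and was negative in all of them.

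ITGB6, the other TGF-β-activating β chain, was at the edge of detection, with 19, 18 and 27 reads across *ZK3*-WT libraries against 10, 0 and 11 reads across *ZK3*-KO libraries. The groups did not overlap, but the log2 fold change of -1.51 ± 0.86 had an edgeR FDR of 0.399 and this depth cannot fix its size. ITGB5, the vitronectin-binding β5 chain, was measured at 71.1, 104 and 91.7 CPM across *ZK3*-WT libraries against 75.6, 63.7 and 126 CPM across *ZK3*-KO libraries, a log2 fold change of -0.01 ± 0.28. It was -0.35 ± 0.18 (edgeR FDR = 0.219) without *ZK3*-KO replicate 3 and 0.18 without replicate 2.

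ITGB1 was the only β chain with a positive log2 fold change. It was measured at 557, 802 and 721 CPM across *ZK3*-WT libraries against 860, 579 and 1115 CPM across *ZK3*-KO libraries. The groups overlapped, with 2 of 3 *ZK3*-KO libraries above every *ZK3*-WT library, and the log2 fold change was 0.30 ± 0.27 (95% CI -0.33 to 0.92, edgeR FDR = 0.605). It stayed positive under all 13 alternatives, between 0.06 and 0.51, with no call. The pseudogene ITGB1P1, listed with 333 to 925 reads per library, resembles ITGB1, and how the authors' counting divided reads between them is not given in the sources used here.

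**Figure D2:**
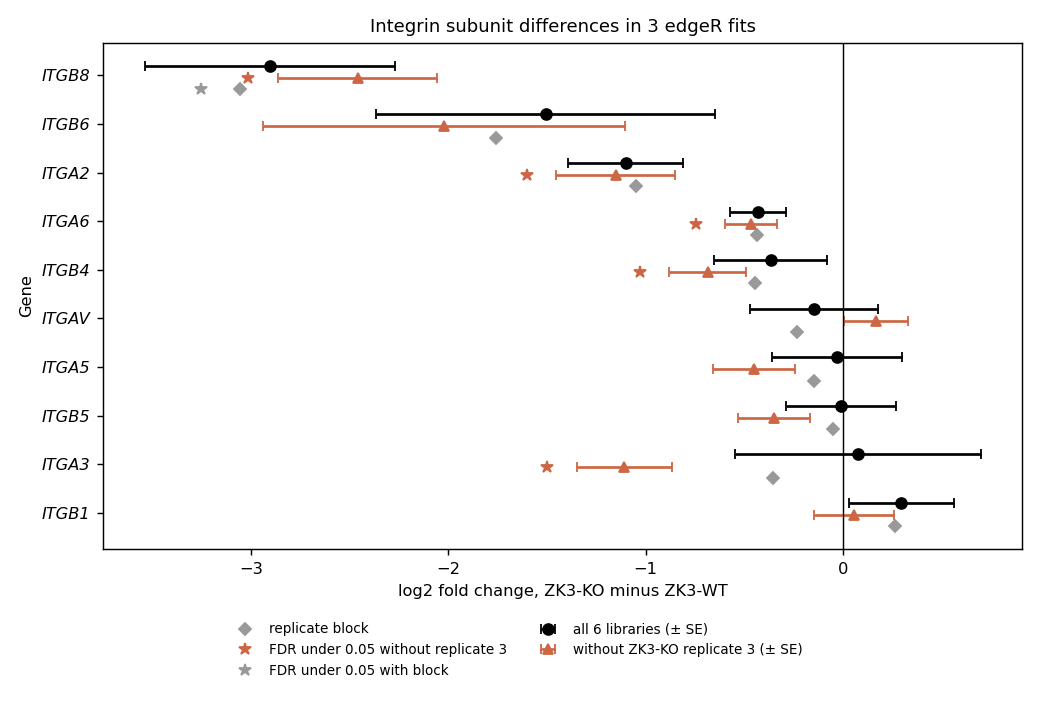
Log2 fold change of each integrin subunit (*ZK3*-KO minus *ZK3*-WT) in all 6 libraries (circles ± SE), without *ZK3*-KO replicate 3 (triangles ± SE) and with the replicate block (diamonds), where stars mark an edgeR FDR under 0.05. ITGB8, ITGB6, ITGA2, ITGA6, ITGB4, ITGA5 and ITGB5 lie left of 0 in each fit, ITGA5 and ITGB5 at -0.03 and -0.01 in all 6 libraries. ITGA3 moves from 0.08 to -1.11 when replicate 3 is left out.

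Since every β chain was measured in the same library, its share of the summed β TPM does not depend on library scaling. ITGB1 took 61.6% to 69.7% of the β sum in *ZK3*-WT and 73.7% to 75.4% in *ZK3*-KO libraries. The share of ITGB4 was 20.5% to 30.6% in *ZK3*-WT and 16.2% to 18.8% in *ZK3*-KO libraries, and that of ITGB8 was 0.521% to 1.09% and 0.0184% to 0.209%. For these 3 chains the groups did not overlap, *ZK3*-KO replicate 3 included. Nor did they for the barely detected ITGB6 (0.0175% to 0.0282% and 0% to 0.0109%), whereas the share of ITGB5 overlapped (7.29% to 8.70% and 7.0% to 8.49%). In CPM, 13.8% of all genes tested were apart in the lower and 12.7% in the higher direction. No such background was computed for shares. The shares add to a whole, so a lower share of ITGB4 and a higher one of ITGB1 are not separate observations, and they were not tested. The summed β level was 591 ± 81.9 TPM in *ZK3*-WT and 580 ± 133 TPM in *ZK3*-KO cells (SD, n = 3). The α sum ranged from 408 to 571 TPM in *ZK3*-WT and was 334, 236 and 696 TPM in *ZK3*-KO replicates 1, 2 and 3, where ITGA3 took 52.6%, 48.1% and 80.1% of it. The α shares of ITGA3, ITGA5, ITGA6 and ITGAV overlapped between genotypes, and so did that of ITGA2 (6.52% to 10.6% and 2.35% to 6.57%).

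**Figure D3:**
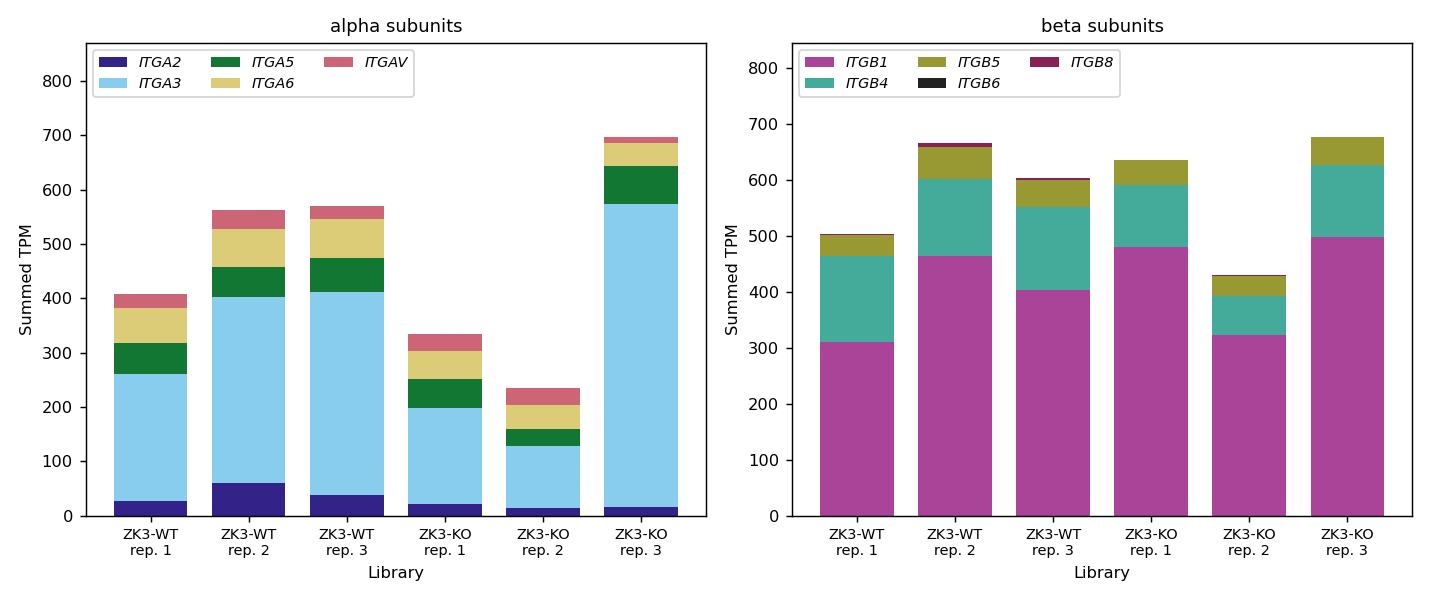
Deposited TPM of the α subunits (left) and β subunits (right) stacked for each library, on axes from 0. The β bars of *ZK3*-KO libraries hold 73.7% to 75.4% ITGB1, above the 61.6% to 69.7% of *ZK3*-WT libraries, and the α bar of *ZK3*-KO replicate 3 is 80.1% ITGA3.

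The genes whose pattern over the 6 libraries was most like that of ITGB4 were HLA-E, FAM219B, KHNYN, NMRK1 and GSTM2, by the root mean square difference of centred log2 CPM over 13148 genes. This difference was 0.0371 for HLA-E and 0.0630 to 0.0850 for the other 4. HLA-E was measured at 218, 194 and 203 CPM across *ZK3*-WT libraries against 153, 100.3 and 222 CPM across *ZK3*-KO libraries, and like ITGB4 it was lowest in *ZK3*-KO replicate 2 and highest in replicate 3. Among the members, ITGA5 was nearest to ITGB4 (0.177, rank 147), followed by ITGA6 (0.293, rank 1239), and ITGB8 was farthest (1.77, rank 13102). ITGB6 was too low to be ranked.

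**Figure D4:**
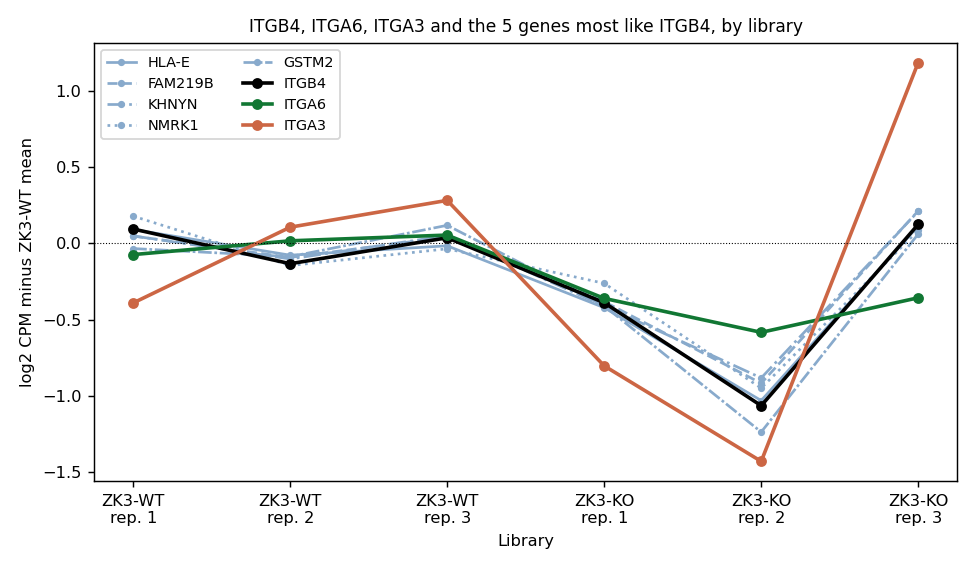
Log2 CPM of ITGB4 (black), ITGA6 (green), ITGA3 (orange) and the 5 genes most like ITGB4 (blue) in each library, minus the mean of the *ZK3*-WT libraries. ITGB4 and the 5 genes dip in *ZK3*-KO replicate 2 and return to the *ZK3*-WT level in replicate 3, where ITGA6 stays below 0 and ITGA3 is the highest.

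Genes within 500 kb of the members' annotated span in GRCh37 were set beside them. ITGB4 lies on chromosome 17 at 73717408 to 73753899, and 33 of its neighbours were tested, with a median log2 fold change of 0.25 and none past an FDR of 0.05. ITGB8 lies on chromosome 7 at 20370325 to 20455377, and its 4 tested neighbours had log2 fold changes from -0.03 to 1.56, none past the threshold. The 4 tested neighbours of ITGA2 (chromosome 5, 52285170 to 52390609) lay between -0.13 and 0.31, and ITGA1, which encodes another collagen-binding α chain and lies beside it, was at 0.04 ± 0.25. Neighbours past the threshold in edgeR were 2 near ITGA5 (PPP1R1A, FDR = 0.00974, and HOXC4, FDR = 0.00977) and 1 near ITGB6 (PLA2R1, FDR = 0.0210).

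Of the 16 other integrin subunits, 10 passed the filter, and 0 rose and 0 fell by edgeR, with a median log2 fold change of -0.14. None had an unadjusted p under 0.05. ITGA7, a muscle laminin receptor chain, was at 17.4 ± 1.55 CPM in *ZK3*-WT and 17.7 ± 5.61 CPM in *ZK3*-KO cells, and ITGAE, which pairs with β7, was at 11.5 ± 1.52 and 12.7 ± 1.10 CPM. ITGAX, a leukocyte α chain, had the lowest log2 fold change at -0.59 ± 0.70. It was the only one to pass without *ZK3*-KO replicate 3 (-1.70, edgeR FDR = 0.0448), where 7.73% of all genes fell. ITGA1, ITGA10 and ITGA2B had log2 fold changes of 0.04, -0.30 and -0.09.

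The matrix ligands of these receptors split in both directions. Of 35 genes, 29 passed the filter, 3 rose, 1 fell and 25 did not pass, and their median log2 fold change was 0.16. Of all genes tested, 0.817% rose and 1.23% fell. LAMA3, the α chain of laminin 332 to which α6β4 and α3β1 bind, was measured at 12.2, 11.3 and 9.57 CPM across *ZK3*-WT libraries against 35.8, 26.9 and 40.7 CPM across *ZK3*-KO libraries. Each *ZK3*-KO library was above each *ZK3*-WT library, and the log2 fold change was 1.64 ± 0.20 (edgeR FDR = 0.0116). Its FDR was 0.0638, 0.0998 and 0.0861 without *ZK3*-WT replicate 1, 2 or 3 and 0.0679 without *ZK3*-KO replicate 1.

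LAMB3, the β chain that joins LAMA3 in laminin 332, did not pass. It was at 58.6, 64.6 and 104 CPM across *ZK3*-WT libraries against 50.6, 25.0 and 305 CPM across *ZK3*-KO libraries, high in the same library as ITGA3, and it was named after its values were seen. LAMA4, found in vessel and mesenchymal laminins, rose from 1.47 ± 0.165 to 7.52 ± 1.43 CPM (log2 fold change 2.35 ± 0.24, edgeR FDR = 0.00622), and the call was lost without *ZK3*-WT replicate 2 (FDR = 0.0548) or 3 (FDR = 0.0529). TGFB3, a ligand whose latent form is held by αv integrins, rose from 1.93 ± 0.358 to 5.00 ± 0.993 CPM (1.38 ± 0.26, edgeR FDR = 0.0469). HSPG2, which encodes the basement membrane proteoglycan perlecan, fell from 193 ± 12.5 to 96.3 ± 20.3 CPM (-1.0 ± 0.19, edgeR FDR = 0.0469). Calls of these last 2 genes were lost when any library other than *ZK3*-KO replicate 3 was left out, with FDRs up to 0.244 for TGFB3 and 0.218 for HSPG2. The TGFB3 call held in 3 of 13 alternatives (DESeq2, the block and the fit lacking *ZK3*-KO replicate 3) and was also lost under both other scalings, both other filters and limma, while HSPG2 passed in 6 of 13. LAMB1 and LAMA5, common basement membrane laminin chains, had log2 fold changes of -0.79 (edgeR FDR = 0.0905) and -0.43 (FDR = 0.545). Both passed without *ZK3*-KO replicate 3 (FDR = 0.0162 and 0.0240), where 7 ligands rose and 5 fell. In that fit, 7.41% of all genes rose and 7.73% fell.

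Of 19 hemidesmosome, tetraspanin and surface partners, 18 passed the filter and 0 rose or fell by edgeR, with 2 at an unadjusted p under 0.05 (18.4% over all genes) and a median log2 fold change of 0.06. PLEC, which encodes plectin, the linker from ITGB4 to keratin, was at 927 ± 108 CPM in *ZK3*-WT and 1028 ± 475 CPM in *ZK3*-KO cells, and CD151, the tetraspanin bound to laminin receptors, was at 176 ± 32.4 and 180 ± 66.3 CPM (both named after their values were seen). COL17A1, the hemidesmosomal transmembrane collagen, was at 1.40, 1.85 and 1.82 CPM across *ZK3*-WT libraries against 3.99, 2.74 and 3.09 CPM across *ZK3*-KO libraries, with a log2 fold change of 0.95 ± 0.26 (edgeR FDR = 0.123, and 0.0420 without *ZK3*-KO replicate 3). SDC1, the proteoglycan syndecan 1, gave 0.67 (FDR = 0.161), BSG, which encodes basigin, gave 0.31, and TSPAN4, CD82 and CAV1 gave -0.56, -0.43 and -0.28, none past the threshold. Without *ZK3*-KO replicate 3, 2 partners were higher and 2 lower, where 7.41% of all genes were higher and 7.73% lower.

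The 41 adaptors and kinases inside the cell all passed the filter, and their median log2 fold change was 0.02. Of these, 2 rose and 0 fell, where 0.817% of all genes tested rose and 1.23% fell. Both adaptors that rose encode kindlins, which bind β tails and activate integrins together with talin. FERMT1, the epithelial kindlin 1, was measured at 38.2, 42.5 and 39.9 CPM across *ZK3*-WT libraries against 67.1, 76.2 and 69.0 CPM across *ZK3*-KO libraries, a log2 fold change of 0.82 ± 0.13 (edgeR FDR = 0.0293). FERMT2, the widely expressed kindlin 2, was measured at 34.4, 34.8 and 34.4 CPM across *ZK3*-WT libraries against 68.6, 69.2 and 60.7 CPM across *ZK3*-KO libraries (0.94 ± 0.13, edgeR FDR = 0.0187). For both genes every *ZK3*-KO library was above every *ZK3*-WT library, and FERMT2 was lowest among *ZK3*-KO libraries in replicate 3. FERMT3, the blood cell kindlin, was low and gave 1.32 ± 0.30 (FDR = 0.0764). The calls of FERMT1 and FERMT2 were lost when any library other than *ZK3*-KO replicate 3 was left out, with FDRs up to 0.194 and 0.147, and by limma on log2(TPM + 1) (FDR = 0.103 and 0.0767). The FERMT1 call was also lost with library totals alone, so it held in 6 of 13 alternatives, against 7 of 13 for FERMT2. VASP, an actin regulator, gave 1.02 (FDR = 0.197), TNS2 and TNS3, tensins that link β tails to actin, gave -0.77 (FDR = 0.0543) and -0.43 (FDR = 0.300), and PARVA, a partner of ILK, gave -0.53 (FDR = 0.220).

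**Figure D5:**
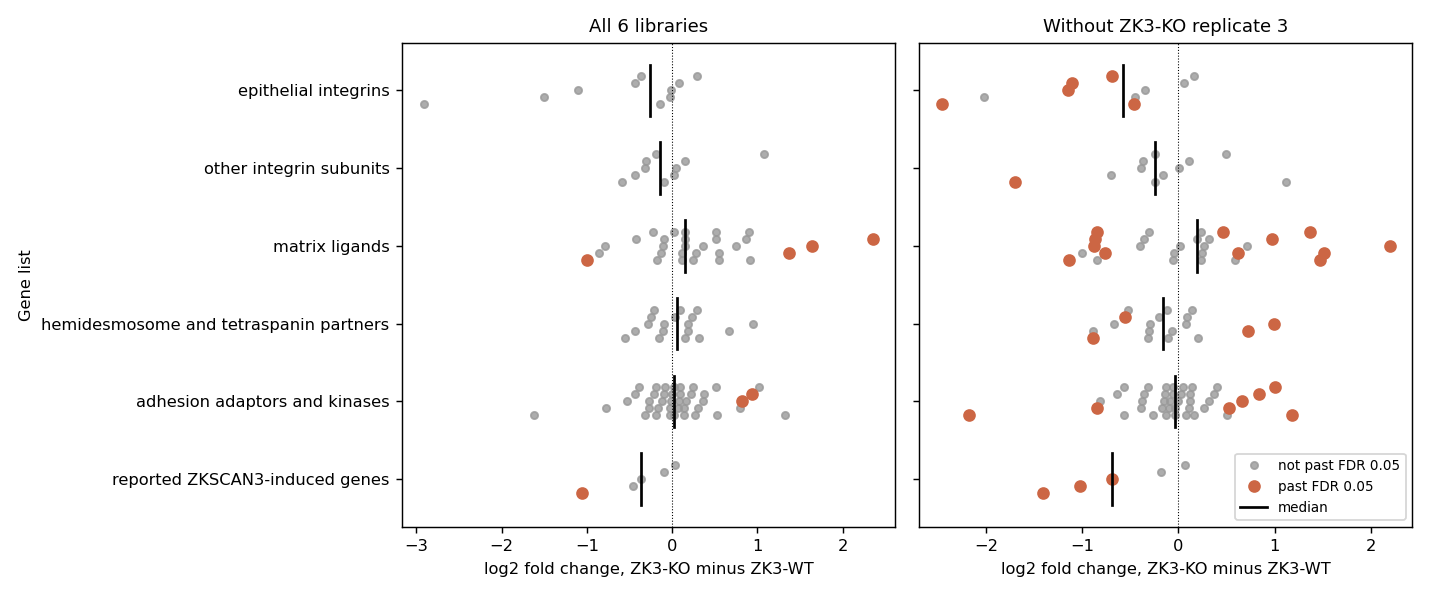
Log2 fold change (*ZK3*-KO minus *ZK3*-WT) of each tested gene by gene list in all 6 libraries (left) and without *ZK3*-KO replicate 3 (right), with larger orange points past an edgeR FDR of 0.05 and a bar at each list's median. The right panel leaves out TNC, which had no *ZK3*-KO read in that fit. None of the 10 epithelial integrins is orange on the left and 5 are on the right, all below 0.

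ITGB4 was compared with the other genes described earlier as induced by ZKSCAN3. Of the 7, 5 passed the filter and 1 fell, with a median log2 fold change of -0.37, where 1.23% of all genes tested fell. EGFR, the epidermal growth factor receptor, fell from 167, 192 and 167 CPM in *ZK3*-WT to 86.4, 84.9 and 80.3 CPM in *ZK3*-KO cells (log2 fold change -1.06 ± 0.14, edgeR FDR = 0.0144), with no overlap and little spread. Its FDR was 0.0644, 0.107 and 0.0870 without *ZK3*-WT replicate 1, 2 or 3 and 0.0973 without *ZK3*-KO replicate 1. VEGFA, an angiogenic growth factor, was at 91.1, 157 and 198 CPM across *ZK3*-WT libraries against 72.5, 39.2 and 213 CPM across *ZK3*-KO libraries (-0.46 ± 0.59, edgeR FDR = 0.731). Like ITGB4 it passed without *ZK3*-KO replicate 3 (-1.41, edgeR FDR = 0.0283). In that fit 3 of the 5 fell, where 7.73% of all genes fell. CCND1, which encodes cyclin D1, and IGF2, an insulin-like growth factor, gave -0.10 ± 0.19 and 0.03 ± 0.16 with neither past the threshold. CCND2, which encodes cyclin D2, had at most 4 reads in a library and MMP26, a metalloproteinase, had 0 in every library, so neither was tested.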

How the data were processed

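The authors sequenced stranded, poly(A)-selected paired-end libraries and quantified reads against hg19 with Bowtie 2 (version 2.2.5 per the labels). Their methods name an Ensembl annotation, whereas the table lists NCBI Gene identifiers. The authors deposited raw read counts per gene, TPM values (scaled by transcript length, then to an equal sum per library) and FPKM values (scaled by length and library size), the last not used here. Whether counting used strand is not given in the sources used here, so genes with antisense partners may share reads.

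Counts were tested in R 4.3.3 with edgeR 4.0.16 (filterByExpr, TMM factors from 0.910 to 1.03, quasi-likelihood F-test, genotype as the only factor, all 6 libraries) and Benjamini-Hochberg adjustment over all 18366 genes tested. The threshold was an FDR of 0.05. CPM are TMM-normalized, and levels of different genes were compared only as deposited TPM. Alternatives were DESeq2 1.42.0, library totals, upper-quartile factors, other count filters, limma 3.58.1 on log2(TPM + 1) from the deposited TPM, a replicate block and each library left out in turn. The scripts were checked on simulated counts.

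Deviations from the genotype mean correlated between same-numbered libraries at 0.294, 0.112 and 0.449 across genes, and the numbers were taken as pairs on that basis alone, although *ZK3*-WT replicate 1 and *ZK3*-KO replicate 2 correlated at 0.209. Replicates differed by more than sampling noise, with a chi-square per degree of freedom of 41.5 or more over genes with at least 20 reads. Positions come from GENCODE on GRCh37 and upstream sequences from RefSeq on GRCh38.p14.

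The members, lists and tests were chosen with earlier results of these data known. Named genes were every member, ZKSCAN3, every gene described earlier as ZKSCAN3-induced, the 5 genes most like ITGB4 and, in each other list, those past the threshold plus the 3 highest and 3 lowest whose average log2 CPM was 1 or more.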

Additional observations from a re-analysis of the deposited data

How the results depend on the processing

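ITGB4, ITGA2, ITGA6, ITGB6 and ITGB8 stayed negative and ITGB1 positive in all alternatives run for each. The number of members lower past the threshold was 2 by DESeq2, 1 with the replicate block and 1 by limma on log2(TPM + 1). It was 0 to 5 when 1 library was left out, the 5 without *ZK3*-KO replicate 3. Lower among all genes tested were 4.33% by DESeq2, 1.54% with the block and 294 of 18366 by limma, where 88 were higher. Without *ZK3*-KO replicate 3, 7.73% were lower and 7.41% higher. Over all genes, 49 to 158 were called when any other library was left out, 376 in the full set and 2858 in the fit lacking *ZK3*-KO replicate 3, and the cause was not tested. DESeq2 called 1506 genes (3.87% of all genes tested were higher and 4.33% lower), which included 6 higher and 2 lower ligands, 1 higher partner, and 5 higher and 1 lower adaptors. Lower ligands numbered 0 with upper-quartile factors and 0 with all genes of at least 1 read. Higher adaptors numbered 1 with library totals, which called 1 lower adaptor, and 0 by limma. The replicate block changed no other call among the members, and the other lists' counts were the same with it.

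When 1 library was left out, higher ligands ranged from 0 to 7 and lower from 0 to 5, higher adaptors from 0 to 5 and lower from 0 to 2, partners from 0 to 2 in each direction, lower other subunits from 0 to 1, and lower ZKSCAN3-induced genes from 0 to 3. Log2 fold changes that changed sign then ranged from -1.11 to 0.48 for ITGA3, -0.45 to 0.26 for ITGA5, -0.35 to 0.17 for ITGAV, -0.35 to 0.18 for ITGB5, -0.29 to 0.086 for ZKSCAN3, -0.056 to 0.11 for IGF2, -0.24 to 0.21 for ITGA7, -0.077 to 0.18 for ITGA1 and -0.24 to 0.12 for ITGA2B, and from -0.23 to 0.25 for the log2 ITGB4 to ITGA6 ratio. That of ITGB4 ranged from -0.69 to -0.11. With library totals the sign turned for ITGA3 (-0.057), IGF2 (-0.049), ITGA7 (-0.070) and ITGA1 (-0.040), with the block for ITGA3 (-0.35) and ITGA7 (-0.016), and by limma for ITGA3 (-0.47), IGF2 (-0.13), ITGA7 (-0.12) and ITGA1 (-0.024). The ITGB4 to ITGA6 ratio from CPM per kilobase differed by -0.0093. Of these log2 fold changes, those of ITGA3 and ITGB4 in the fit lacking *ZK3*-KO replicate 3 were past the threshold. With 3 libraries per genotype, and 43 to 275 ITGB8 reads in *ZK3*-KO libraries, small differences were not detectable.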

Other observations

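ITGBL1 encodes a secreted protein whose repeats resemble the stalk of integrin β chains, and it is not an integrin subunit. It was singled out after its values were seen. It was counted 208, 265 and 232 times across *ZK3*-WT libraries against 4, 13 and 3 times across *ZK3*-KO libraries, in replicate order. In CPM it fell from 3.47 ± 0.270 to 0.0994 ± 0.0766 (SD, n = 3), a log2 fold change of -5.08 ± 0.50 with an edgeR FDR of 0.00559. It passed in 12 of the 12 alternatives in which it was tested, those that left out a library included. ITGBL1 had passed the filter only through its *ZK3*-WT reads, and the filter of at least 10 reads in every library left it out. At this depth in *ZK3*-KO libraries the size of the fold change is not fixed.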
